A study of Allium sativum with 18 samples.

Results

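A single garlic gene, Asa7G01587.1, was much less abundant in germinating than in dormant basal clove while most of its dormant level was still present in germinating storage clove. It was picked from 57561 gene IDs by group means of FPKM (fragment counts divided by gene length and by the reads assigned to genes in the library). The rule asked for at least 20 FPKM in enlarging and in dormant basal clove, a germinating basal level of at most 20% of the dormant one, at least 10 FPKM in dormant storage clove, and a germinating storage level of at least 70% of the dormant one. It was meant to collect genes lost at germination in basal clove only, and the data go against that description in several ways. There was 1 gene and not a group of them, it was not lost from germinating basal clove, and its level in storage clove fell as well, at an earlier stage.

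RNA was sequenced from bulbs of garlic (Allium sativum) of the plants labelled Chalingzipisuan, whose basal clove and storage clove had been parted by hand. All plants carried the same label and no treatment other than the stage is given. Bulbs were sampled while enlarging, a week after the flower stems emerged, while dormant, and at germination, with shoots still short. There were 6 groups by tissue and stage, each with 3 biological replicates, and the 18 libraries held 6540146 to 21897520 reads assigned to genes. Neither the age of the bulbs nor the number pooled in a sample is stated by the labels.

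A garlic clove is a bud wrapped in a swollen storage leaf and seated on a short compressed stem. During dormancy the bud does not grow although it is alive, and at sprouting the reserves of the storage leaf feed the new shoot and roots. The files pair none of the IDs with a name, so nothing can be said of what the protein of Asa7G01587.1 does, the tissues could not be checked against marker genes, and no pathway could be drawn up around the gene. Its sequence was not used here. The steps of its FPKM values gave a coding length of 1920 nucleotides, longer than that of 89.9% of the 30530 genes tested, whose median was 765.

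The gene was most abundant in dormant basal clove, at 221, 235 and 243 FPKM in replicates 1, 2 and 3 (mean 233 ± 10.8, SD, n = 3 libraries here and below). There it ranked between 643rd and 770th among all gene IDs of a library. In enlarging basal clove the 3 libraries stood at 149, 164 and 143 FPKM (152 ± 10.8), all of them below the dormant ones. In germinating basal clove they stood at 39.8, 43.4 and 46.7 FPKM (43.3 ± 3.47). The germinating libraries held 1556 to 1826 reads of the gene, where 3 reads would have been at most 0.239 FPKM in any library, so the transcript was plainly present.

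In storage clove the highest level was that of enlarging bulbs, with 116, 111 and 114 FPKM (114 ± 2.65). Dormant storage clove had 47.5, 52.0 and 55.2 FPKM (51.6 ± 3.83), and the libraries of these stages lay 55.8 FPKM apart at their nearest. Germinating storage clove had 42.6, 32.0 and 36.1 FPKM (36.9 ± 5.30). The fewest reads of the gene, 597, were counted in dormant storage replicate 1, where counting error alone is 4.09% of the value. As these are bulk samples, fewer cells of a type and less RNA per cell cannot be told apart.

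**Figure D1:**
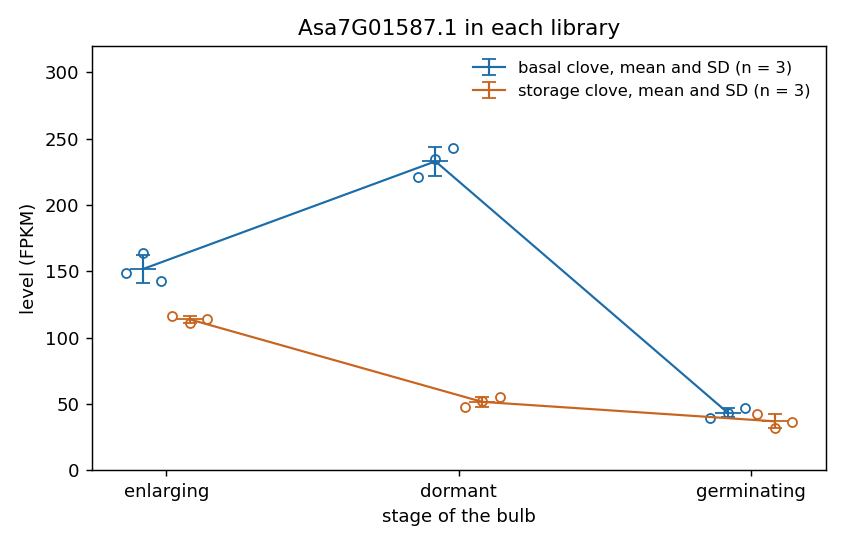
Level of Asa7G01587.1 (FPKM, linear axis from 0) by stage in basal clove (blue) and storage clove (orange); open circles are single libraries, bars the mean and SD of 3 libraries, and lines join the means. Basal clove rose to 233 FPKM at dormancy while storage clove was at 51.6, and at germination the tissues stood at 43.3 and 36.9 FPKM with overlapping libraries.

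Ordered by level, the groups ran from dormant basal through enlarging basal, enlarging storage, dormant storage and germinating basal to germinating storage clove. The first 4 steps of this order separated all libraries, although dormant storage and germinating basal clove were only 0.841 FPKM apart at their nearest libraries. The last step did not separate them, because germinating storage replicate 1, at 42.6 FPKM, lay above germinating basal replicate 1, at 39.8 FPKM. The tissue difference was therefore widest at dormancy, 4.52-fold, and in the deposited values narrowest at germination, 1.17-fold. The narrowest stage depended on the scaling. When libraries were scaled by the median ratio of their genes, the difference was 1.30-fold both at germination and in enlarging bulbs, and 4.24-fold at dormancy. The deposited levels chose the gene, apart from those of enlarging storage clove, and are given as a description without a test.

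The fall at germination was 5.38-fold in basal clove, with single pairs of libraries between 4.74-fold and 6.10-fold. In storage clove the germinating mean was 1.40-fold below the dormant mean, with pairs between 1.12-fold and 1.72-fold, and every germinating library was below every dormant one. Taken from enlarging bulbs instead, the means differed by 3.51-fold in basal and 3.08-fold in storage clove. Both tissues thus ended near 30% of their enlarging level, 28.5% in basal and 32.4% in storage clove, and the tissues differed in the stage by which most of the decrease had taken place. The storage mean had dropped to 45.3% of the enlarging level by dormancy, when the basal mean was 1.54-fold above it. When libraries were scaled by the median ratio of their genes, the basal fall at germination was 4.32-fold, and the decreases from enlarging to germinating bulbs were 2.75-fold in both tissues.

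The gene met the limits narrowly. Its germinating mean was 18.6% of the dormant mean in basal clove, against a limit of 20%, and 71.6% in storage clove, against a limit of 70%. It would not have been chosen without storage germinating replicate 1 (66.1% in storage clove), without storage dormant replicate 1 (68.9%), or after median-ratio scaling (23.2% in basal clove). The basal floors were met by 8663 genes, of which 122 had the basal fall and 76 of those had at least 10 FPKM in dormant storage clove. In 46 of the 76 the storage level also dropped to 20% or less, in 29 it was between the limits of 20% and 70%, and in 1 it was above. The nearest gene below the storage limit had 67.1% of its dormant storage level and 14.1% of its dormant basal level. On the other side, 5245 genes met the floors and the storage limit, and the nearest one above the basal limit had 21.0% of its dormant basal level and 98.6% of its dormant storage level.

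**Figure D2:**
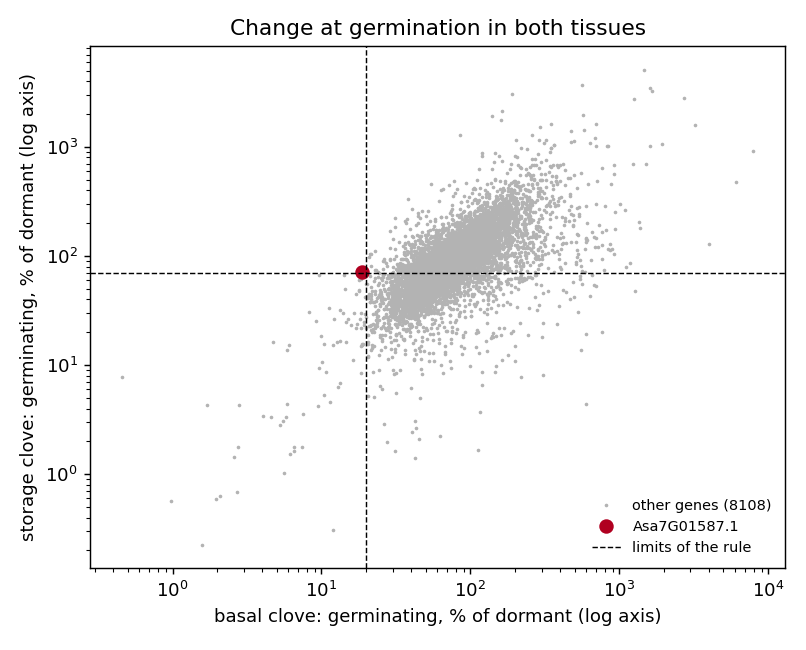
Germinating level as a percentage of the dormant level in basal clove (horizontal) and storage clove (vertical), both on log axes, for the 8109 genes that met the FPKM floors of the rule. Dashed lines mark 20% in basal and 70% in storage clove; Asa7G01587.1 (red), at 18.6% and 71.6%, is the 1 gene in the upper left field and lies next to both lines.

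A basal limit of 30% let in 18 other genes. In dormant basal clove they stood at 23.1 to 1119 FPKM with a median of 46.8, and 1 of them was above Asa7G01587.1. Their storage level at germination was 71.2% to 169% of the dormant one. In storage clove their dormant mean was 77.0% of the enlarging mean at the median, and in 3 of the 18 it was lower than the 45.3% of Asa7G01587.1. A storage limit of 50% let in 5 others, at 26.6 to 90.6 FPKM in dormant basal clove, whose dormant storage means were 80.7% to 106% of the enlarging ones.

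Enlarging storage clove was the only group that the rule did not use, so comparisons that include it were made. The test was limma on log2(FPKM + 1) over 30530 genes, with p-values adjusted over all of them by the Benjamini-Hochberg method and genes called below 0.05. The other side of each comparison carried a limit of the rule. The rule favours a high dormant basal level and a low dormant storage level, which pulls the comparisons with dormant clove towards the differences found, and its FPKM floors were exceeded several-fold by this gene.

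While the bulb was enlarging, the gene was slightly higher in basal than in storage clove, with the 3 basal libraries at 143 to 164 FPKM and the 3 storage libraries at 111 to 116. The difference was 0.41 on the log2 scale (95% interval 0.22 to 0.61, limma adjusted p = 0.0014), 1.33-fold on group means. In this comparison 51.5% of all genes were called and 28.7% were called higher in basal clove, so the call itself is a common one. A larger difference in this direction was measured for 31.1% of the genes tested.

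On entering dormancy the gene fell in storage clove, from 111 to 116 FPKM to 47.5 to 55.2 FPKM. The difference was -1.13 on the log2 scale (95% interval -1.32 to -0.93). The rule favours a low dormant storage level, so no p-value is given for the gene in this step. The interval takes no account of that choice. Calls were rarer here, with 20.3% of all genes called and 14.1% called lower in dormant storage clove. A more negative difference was measured for 4.39% of the genes. The germinating storage level differed from the enlarging one by -1.61 on the log2 scale (95% interval -1.80 to -1.41, limma adjusted p = 9.6e-10). The rule used this germinating level, which had to be high against a dormant level that the rule favours low. This p-value is therefore not independent of the choice of the gene. In this comparison 53.3% of all genes were called and 29.1% were called lower. A more negative difference was measured for 2.52% of the genes.

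The step from enlarging to dormant went opposite ways in the tissues. The basal means went from 152 to 233 FPKM and the storage means from 114 to 51.6 FPKM, and no library of the later stage overlapped one of the earlier stage. The interaction, basal change minus storage change, was 1.75 on the log2 scale (95% interval 1.47 to 2.02). Of its 4 groups 3 were used by the rule, which selects for this direction, so no p-value is given for the gene. The interval takes no account of that choice. Among all genes 28.6% were called, 17.6% in this direction. A larger positive interaction was measured for 2.08% of the genes. Over all genes the median interaction was 0.10, or -0.002 once libraries were quantile-normalized, and relative to it the gene stood at 1.64 and 1.67.

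**Figure D3:**
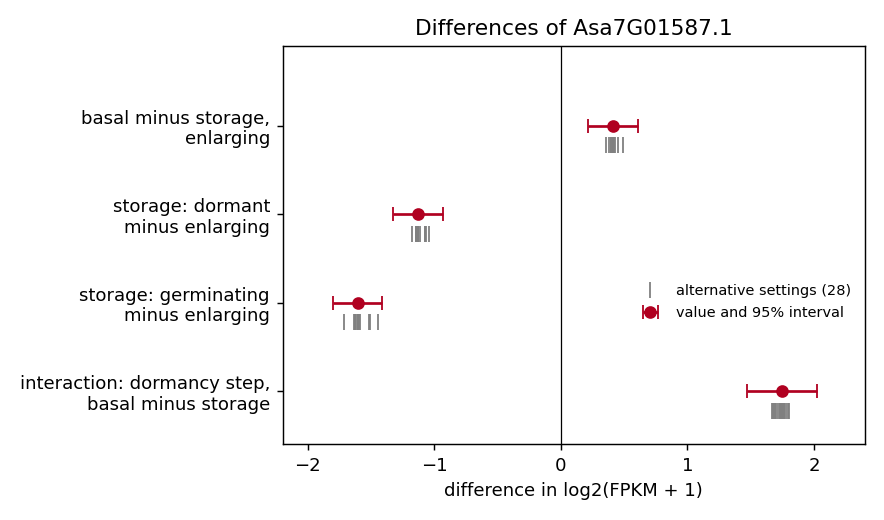
Differences of Asa7G01587.1 in log2(FPKM + 1) in the 4 comparisons with enlarging storage clove. Red points are the values and bars their 95% intervals from limma; grey ticks are the 28 alternative settings of each comparison. All ticks lie on the same side of 0 as the point. The intervals take no account of the choice of the gene by the rule.

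The 75 other genes with the same basal fall and at least 10 FPKM in dormant storage clove are set beside it as a description only. All 75 had failed the storage limit and Asa7G01587.1 had passed it. That limit favours a low dormant and a high germinating storage level. The dormant and germinating storage values of the gene and of the 75 were therefore sorted by the rule itself. On entering dormancy their storage mean was 122% of the enlarging mean at the median, against 45.3% for Asa7G01587.1, and 2 of the 75 had a lower percentage. In the storage comparison of dormant with enlarging bulbs, 23 of them were called higher, 4 lower and 48 were not called. Of all genes tested, 20.3% were called there and 14.1% were called lower. The interaction was called negative for 40 of them and positive for 3, where 28.6% of all genes were called and 17.6% were called positive. Its median was -0.85 on the log2 scale, and all 75 values were below the 1.75 of Asa7G01587.1. In the comparison of germinating with enlarging storage clove the 75 went further than the gene at the median, an order that the storage limit favours. There 74 were called lower, their median was -2.36 on the log2 scale, and 53 of them were more negative than the -1.61 of Asa7G01587.1. Of all genes tested, 53.3% were called in that comparison and 29.1% were called lower. In enlarging bulbs 26 were called higher in basal clove and 26 lower, where 51.5% of all genes were called and 28.7% were called higher. In germinating basal clove their median was 6.40 FPKM, and 5 of the 75 were above the 43.3 FPKM of Asa7G01587.1. The differences between this gene and the 75 were not tested.

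**Figure D4:**
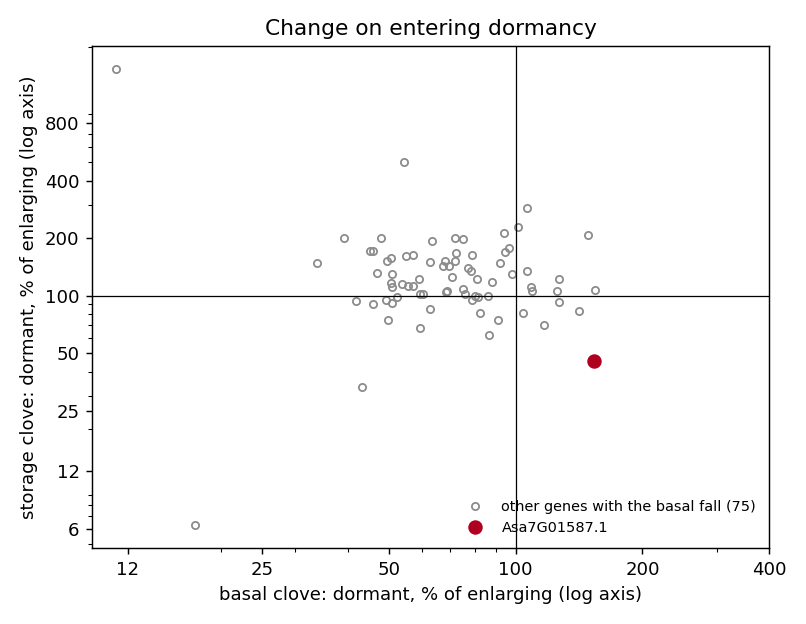
Dormant level as a percentage of the enlarging level in basal clove (horizontal) and storage clove (vertical), both on log axes, for Asa7G01587.1 (red) and the 75 other genes with the same basal fall at germination (grey). Solid lines mark no change; Asa7G01587.1 lies in the lower right field with 4 others, and 45 lie in the upper left field, lower in basal and higher in storage clove at dormancy.

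The genes most like Asa7G01587.1 were sought by Pearson's correlation of log2(FPKM + 1) over the 18 libraries, a measure chosen after its values were seen. Of 30529 genes compared, 4 reached a correlation of 0.95 and 119 reached 0.9. The libraries share tissue and stage, so the correlation describes mainly the 6 group means. Asa5G04524.1 was the most alike (r = 0.974), with smaller differences between groups. It had 84.8 ± 3.06 FPKM in dormant basal clove, 70.4 ± 7.0 in enlarging basal, 64.8 ± 2.42 in enlarging storage, 45.4 ± 6.02 in dormant storage, 40.2 ± 1.60 in germinating basal and 39.3 ± 1.47 in germinating storage clove. Its order of groups was that of Asa7G01587.1. Asa7G00884.1 came next (r = 0.962) at far lower levels, from 5.18 ± 1.18 FPKM in dormant basal clove to 0.267 ± 0.0164 in germinating basal and 0.0222 ± 0.0385 in germinating storage clove. Asa7G04299.1 (r = 0.957) was nearer to Asa7G01587.1 in level. Its basal means were 110 ± 2.71, 139 ± 8.54 and 36.4 ± 7.01 FPKM in enlarging, dormant and germinating bulbs. In storage clove they were 70.2 ± 3.09, 46.9 ± 2.86 and 41.9 ± 0.82 FPKM. Germinating means were 26.3% of dormant ones in basal and 89.4% in storage clove. Asa5G01247.1 (r = 0.951) met both ratio limits, at 19.95% and 85.0%, with 2.22 FPKM in dormant basal clove, below the floor.

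Of the IDs next in number, the one before, Asa7G01586.1, had group means between 7.34 and 10.1 FPKM in all 6 groups and a correlation of -0.27 with Asa7G01587.1. The one after, Asa7G01588.1, was at 0 in every library and so tells nothing of the pattern. Among the other IDs within 3 numbers, the highest correlation was 0.48, for Asa7G01589.1, whose basal means lay between 21.9 and 22.8 FPKM at all 3 stages. Whether the numbers follow the order of genes on a chromosome, and whether reads were shared with a near-identical copy elsewhere, is stated neither by the labels nor by the file.

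Libraries of a group differed in how close they were to the other tissue of their stage, by the mean Spearman correlation over the 30530 genes tested. The 3 with the widest lead over their replicates are given here, and no limit was set for that lead. Enlarging storage replicate 2 had a mean correlation of 0.895 with the other tissue, against 0.868 and 0.857 for its replicates, and its value for the gene, 111 FPKM, was the lowest of the 3 and so the farthest from basal clove. Without it the basal excess in enlarging bulbs was 0.39 and the storage fall at dormancy was -1.15 on the log2 scale. Germinating basal replicate 3 had a mean correlation of 0.829 with the other tissue, against 0.798 and 0.778, and held the highest of the 3 basal values, 46.7 FPKM. Without it the germinating basal mean was 17.9% of the dormant one. Germinating storage replicate 1 had a mean correlation of 0.823, against 0.779 and 0.804, and held the highest of the 3 storage values, 42.6 FPKM. Without it the gene missed the storage limit, at 66.1%, and the germinating storage level differed from the enlarging one by -1.71 on the log2 scale. The part of these libraries in the choice of the gene was not tested further.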

How the data were processed

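The authors deposited FPKM values for 57561 gene IDs in 18 libraries, 1 column each. The submitters' processing notes name HISAT2; the counter, genome build, annotation and use of strand were not given in the sources used here. Whole reads were recovered from the steps of the FPKM values: at the totals found, 100% of 595800 values above 0 were whole within 0.01 reads (lengths were searched for), and reads summed to 99.99% of each total. Lengths were multiples of 3 in 95.2% of the 21276 genes with over 100 reads, hence coding lengths. Read-based floors and errors cover counting error only.

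Groups came from the labels. No replicate pair agreed within sampling noise (chi-square per gene at least 2.68). limma 3.58.1 (R 4.3.3) fitted 6 group means to log2(FPKM + 1), a scale that understates changes of low values, with a variance trend, in genes with at least 1 FPKM in at least 3 libraries. The model was tested on simulated data. The gene, rule and lists were chosen with earlier results of these data known. IDs carry no names, so at most 2 each way were to be named in a comparison, by size of difference; with 1 gene chosen, only it qualified. Alternatives were other pseudocounts, filters, scalings, limits, fits with and without trend, block or other groups, voom on recovered reads, and leaving out each library.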

Additional observations from a re-analysis of the deposited data

Results flagged for a closer look

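Asa7G01587.1 had opposite differences in the tissues on entering dormancy, and the fit of the difference between them drew attention to it. The basal change exceeded the storage change by 1.75 on the log2 scale (SE 0.13), with all 3 dormant basal libraries above all 3 enlarging ones and all 3 dormant storage libraries below all 3 enlarging ones. The enlarging basal and both dormant groups were used to choose the gene, and the rule selects for a high dormant basal and a low dormant storage level. The difference is therefore a description of a chosen gene and is given without a p-value.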

How the results depend on the processing

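The enlarging tissue difference and the storage difference at germination of Asa7G01587.1 kept direction and call in all 28 alternatives. The storage step to dormancy and the interaction kept their direction. The enlarging tissue difference ranged from 0.36 to 0.49 (limma adjusted p at most 0.0098) and the storage step to dormancy from -1.18 to -1.04. The storage difference at germination ranged from -1.71 to -1.44 (limma adjusted p at most 1.7e-05, not independent of the rule). The interaction ranged from 1.67 to 1.80. The choice of the gene was less stable, and the cause was not tested. Quantile normalization gave 2 genes, a basal limit of 10% gave 0, one of 30% gave 19, a storage limit of 50% gave 6 and one of 100% gave 0. Leaving out a library gave 1 to 4. The FPKM floors of the rule were not varied, so the number of genes at lower floors is not known. Median-ratio scaling and group medians gave 1 gene each, a different one. Asa7G01587.1 itself missed the basal limit after median-ratio scaling, at 23.2%, and the storage limit after quantile normalization, at 68.3%, with group medians, at 69.5%, without storage dormant replicate 1, at 68.9%, and without storage germinating replicate 1, at 66.1%. Median-ratio scaling moved the basal folds, from 5.38 to 4.32 for dormant over germinating and from 3.51 to 2.75 for enlarging over germinating. The median of all genes in the basal step to germination went from -0.27 to -0.02 on the log2 scale, and the gene relative to the median from -2.13 to -2.07. The median tissue difference in enlarging bulbs went from 0.06 to -0.06 after quantile normalization, and the gene relative to it from 0.35 to 0.55. The median storage difference of germinating from enlarging bulbs went from -0.07 to 0.04 after median-ratio scaling, and the gene relative to it from -1.54 to -1.48. Genes called in the storage step to dormancy went from 6185 to 3626 with voom on the recovered reads. Whether replicate numbers pair the samples was not settled. Deviations from the group mean correlated over 0.1 in 3 of 45 same-numbered pairs, but differently numbered pairs were not compared. With a replicate block the differences were again 0.41, -1.13, -1.61 and 1.75 in the order above. Their limma adjusted p-values were 0.0028 for the enlarging tissue difference and 1.3e-08 for the storage difference at germination. Depth limited little, with at least 597 reads of the gene per library.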
